A study of Mus musculus with 8 samples.

Results

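Genes of cholesterol synthesis were followed in mouse brown adipose tissue (BAT). The members were chosen by gene symbol from a list of 8, of which 7 were found among 49452 genes and 1 is not analysed here. These 7 are Hmgcs1, Idi1, Fdps, Fdft1, Sqle, Cyp51 and Srebf2. No gene of cholesterol uptake is among them, so uptake is described from a separate list. The study asked which transcripts follow BAT function, and RNA-Seq was done on 8 libraries in 4 groups of 2, all from male C57BL/6 mice with no transgene. Mice 10 to 12 weeks of age were kept at 22 °C (replicates 4 and 7) or spent 24 h at 4 °C (replicates 2 and 11). Mice 32 weeks of age had been fed normal chow (NCD, replicates 6 and 8) or a high-fat diet (HFD, replicates 2 and 6) for 28 weeks. The labels say normal chow where the study's text has a control diet, and its methods have food withdrawn at the end of the cold exposure without making clear whether mice at 22 °C were fasted too. The labels number the libraries and do not say that each came from a separate animal, so p-values measure the spread between these libraries.

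Cells make cholesterol from acetyl-CoA. The mevalonate arm (Hmgcs1, Idi1, Fdps) builds farnesyl pyrophosphate, and the sterol arm (Fdft1, Sqle, Cyp51) joins such units into squalene and converts squalene into sterols. Srebf2 encodes SREBP-2, a membrane-bound transcription factor that is released when sterols are scarce and activates genes of both arms. BAT burns lipid to make heat, takes up lipoprotein lipid in the cold, and expresses SREBP-1, the related factor that drives fatty acid synthesis.

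SREBP binds sterol regulatory elements, often beside a box bound by NF-Y. Promoter sequences are shown because the members are known as shared targets of SREBP-2. RefSeq windows (GRCm38.p6) were at hand for 4 of the 7 genes. The 250 bases before each start were searched on both strands for the element core TCACNCCAC, the NF-Y box CCAAT and the E-box CACGTG, and no match overlapped another. All 4 windows held CCAAT, which 33.8% of 32851 promoter windows also held. Only the Hmgcs1 window held TCACNCCAC (1.05% of all windows), and none of the 4 held CACGTG (6.02%). Of 42 other genes of the lists below with a window, 27 held CCAAT, 7 CACGTG and 1 TCACNCCAC. The Hmgcs1 window lies at chr13:119690101-119690350 on the plus strand, with the element 137 to 129 bases before the start between NF-Y boxes. The Srebf2 stretch, chr15:82147019-82147180 on the plus strand, ends 89 bases before the start. The other 88 bases of its window lie past the outermost gene start used for the windows, which is not the start printed below. For Cyp51 (chr5:4104712-4104736, minus strand) and Idi1 (chr13:8885551-8885575 and chr13:8885582-8885605, plus strand), where another annotated transcript starts upstream, only the box with up to 10 bases on each side is shown. Capitals mark the element and the boxes, which read ATTGG when they lie on the other strand. A match is a description of letters and not a mapped binding site.
Hmgcs1: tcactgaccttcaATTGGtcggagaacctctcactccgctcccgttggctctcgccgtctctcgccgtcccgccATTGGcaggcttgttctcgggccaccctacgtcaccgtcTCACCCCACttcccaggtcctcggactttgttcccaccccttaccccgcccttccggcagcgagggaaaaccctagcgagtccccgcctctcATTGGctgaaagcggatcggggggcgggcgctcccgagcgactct
Srebf2: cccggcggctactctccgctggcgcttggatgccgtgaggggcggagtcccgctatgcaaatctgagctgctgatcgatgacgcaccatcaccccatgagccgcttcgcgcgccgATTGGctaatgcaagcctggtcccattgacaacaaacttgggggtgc
Cyp51: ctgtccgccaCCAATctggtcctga
Idi1, first box: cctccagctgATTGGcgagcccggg
Idi1, second box: ccaaggtgccATTGGctggcgacc

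All values are FPKM (fragment counts scaled by transcript length and by what was mapped in the library), so levels of different genes can be set side by side. The 7 genes stood at 626 to 31022 estimated fragments per library, where counting error is at most 4.0%. In each group 1 library had the satellite-repeat gene Gm10800 at 447 to 15726 FPKM and the other at 0.0998 to 4.13 FPKM. These are called satellite-high (22 °C replicate 4, 4 °C replicate 11, NCD replicate 8, HFD replicate 2) and satellite-low, and results are given with this split as a covariate. Genes of the X chromosome are listed at 0 in 3 libraries, which leaves the X-linked pathway genes Nsdhl, Ebp and Mbtps2 untested. Marker genes also moved with the groups. All 11 skeletal muscle markers used were higher in both 4 °C libraries (summed level 1841 to 4079 FPKM against 106 to 530 at 22 °C), and 10 of 11 were lower in both HFD libraries (14.8 to 174 against 543 to 1447 FPKM). All 7 macrophage markers were higher in both HFD libraries (192 to 244 against 39.3 to 109.7 FPKM). No muscle or macrophage marker used was at 0 in any library, and Ucp1, the heat-producing uncoupling protein, stood between 699 and 6462 FPKM. Of 8 brown adipocyte markers 7 were higher in both 4 °C libraries and 1 was lower (summed level 7722 to 9098 against 1983 to 2805 FPKM), and of 7 white adipocyte markers 4 were higher in both HFD libraries (170 to 181 against 17.0 to 26.6 FPKM). The part of these markers in the results below was not tested beyond the fit with a muscle score given there. In bulk tissue, fewer cells of a type and less RNA per cell cannot be told apart.

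At 4 °C, 6 of the 7 genes had higher mean FPKM than at 22 °C and 1, Fdft1, had lower. In 5 genes (Hmgcs1, Fdps, Sqle, Cyp51 and Srebf2) both 4 °C libraries were above both 22 °C libraries, as in 37.9% of all genes tested, and in Fdft1 both were below, as in 20.6%. The median log2 fold change of the 7 was 0.52, beside 0.20 over all genes at 1 FPKM or more. By limma with Benjamini-Hochberg adjustment and a log2 fold change of at least 1, 0 of the 7 passed, where 1.44% of 17477 genes did, and 2 (Fdft1 and Cyp51) had an unadjusted p under 0.05, where 24.5% of all genes did.

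**Figure D1:**
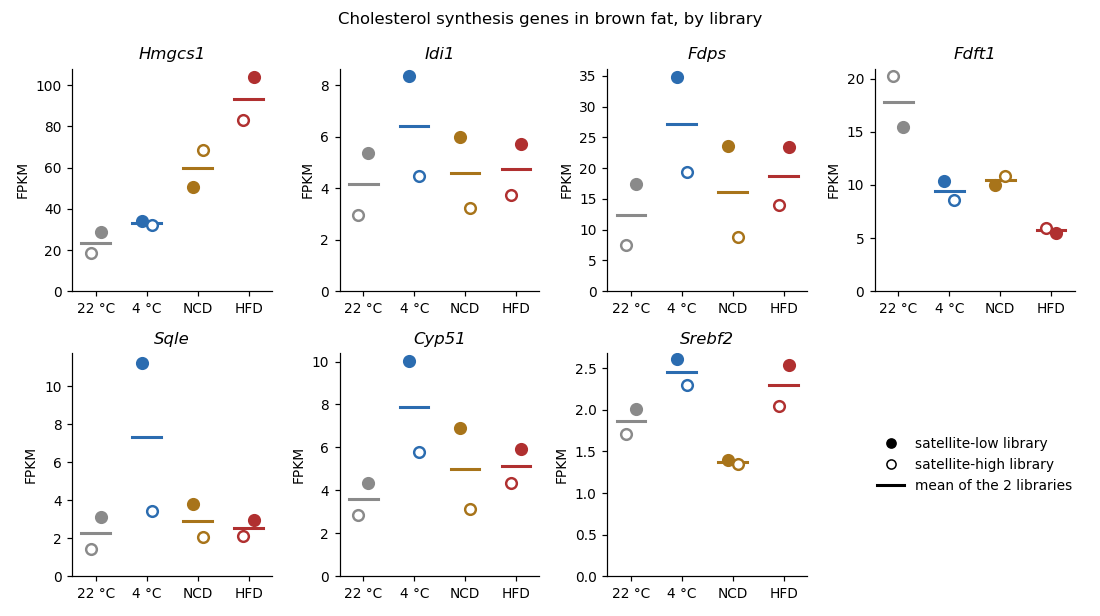
FPKM of the 7 genes (vertical axis, from 0) in each library of the 4 groups (horizontal axis), with the mean of the 2 libraries as a line, satellite-low libraries as filled points and satellite-high libraries as open points. Hmgcs1 climbs from 18.3 to 103.8 FPKM across the groups, while the filled point lies above the open one in all 4 groups for Idi1, Fdps, Sqle, Cyp51 and Srebf2.

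In the mevalonate arm, Hmgcs1 encodes the cytosolic HMG-CoA synthase (chr13:119690462-119708086, plus strand). It stood at 18.3 and 28.5 FPKM at 22 °C and at 34.0 and 32.3 FPKM at 4 °C. The groups did not overlap, and the 4 °C libraries lay close to each other while those at 22 °C were apart. The log2 fold change was 0.51 (SE 0.27, limma adjusted p = 0.30). It was 0.21 without 22 °C replicate 4 and 0.82 without 22 °C replicate 7, and 0.073 after quantile normalization.

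Fdps, the farnesyl pyrophosphate synthase (chr3:89093588-89101959, minus strand), was at 7.46 and 17.4 FPKM at 22 °C and at 34.8 and 19.4 FPKM at 4 °C. Most of the distance between the groups came from 4 °C replicate 2 and 22 °C replicate 4, and the nearest libraries of both groups differed by little. The mean was 12.4 ± 7.04 FPKM at 22 °C and 27.1 ± 10.9 FPKM at 4 °C (SD, n = 2), a difference that did not pass (log2 fold change 1.12, SE 0.46, limma adjusted p = 0.216). With library type as a covariate the SE was 0.20 and Fdps passed the threshold (limma adjusted p = 0.0376), and without 22 °C replicate 7 it passed as well (log2 fold change 1.68, adjusted p = 0.0184). In these fits 4.92% and 4.55% of all genes tested passed. Without 22 °C replicate 4 the log2 fold change was 0.55 (adjusted p = 0.741), and without 4 °C replicate 2 it was 0.71 (adjusted p = 0.487).

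Idi1, which interconverts the isoprene building blocks (chr13:8885501-8892451, plus strand), stood at 2.95 and 5.36 FPKM at 22 °C and at 8.38 and 4.50 FPKM at 4 °C. These groups overlapped, with a log2 fold change of 0.52 (SE 0.36, limma adjusted p = 0.421). That value was 0.13 without 4 °C replicate 2, 0.90 without 4 °C replicate 11, 0.18 without 22 °C replicate 4 and 0.86 without 22 °C replicate 7.

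In the sterol arm, Fdft1 encodes squalene synthase, which commits farnesyl units to sterols (chr14:63145153-63177793, minus strand). It was at 20.2 and 15.4 FPKM at 22 °C and at 10.3 and 8.57 FPKM at 4 °C. Both cold libraries were below both warm ones, with a mean ratio of 1.88 for 22 °C over 4 °C. The log2 fold change was -0.84 (SE 0.22, 95% interval -1.41 to -0.27, limma adjusted p = 0.106). After centring each library on its median it was -1.10 and passed (limma adjusted p = 0.025), as did 4.32% of all genes. The 3′ end of Fdft1 overlaps that of Ctsb, a lysosomal protease gene on the opposite strand at 104 to 213 FPKM, and whether strand was used in counting is not given in the sources used here.

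Sqle encodes squalene epoxidase, a rate-controlling enzyme of the sterol arm (chr15:59315077-59331192, plus strand). Its values were 1.44 and 3.10 FPKM at 22 °C and 11.2 and 3.43 FPKM at 4 °C. The groups did not overlap, but 1 library, 4 °C replicate 2, stood far above the other 3. The log2 fold change was 1.22 (SE 0.53, limma adjusted p = 0.233), and 1.95 without 4 °C replicate 11. It passed with library type as a covariate (SE 0.25, adjusted p = 0.0474) and without 22 °C replicate 7 (1.595, adjusted p = 0.0134), and it was 0.49 without 4 °C replicate 2 (adjusted p = 0.495).

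Cyp51, the lanosterol demethylase (chr5:4081145-4104746, minus strand), stood at 2.86 and 4.32 FPKM at 22 °C and at 10.02 and 5.77 FPKM at 4 °C. Both cold libraries were higher. The log2 fold change was 0.93 (SE 0.31, 95% interval 0.15 to 1.71, limma adjusted p = 0.154), and with library type as a covariate the adjusted p was 0.0558. Without 4 °C replicate 2 the log2 fold change was 0.58 (adjusted p = 0.292).

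Srebf2 (chr15:82147266-82205376, plus strand) had the lowest mean of the 7 at both temperatures, with 1.72 and 2.02 FPKM at 22 °C and 2.62 and 2.30 FPKM at 4 °C. The groups did not overlap, yet the log2 fold change of 0.27 (SE 0.17, limma adjusted p = 0.378) was near the median of 0.20 over all genes at 1 FPKM or more. After rescaling to the autosomal sum without rRNA genes and Ucp1 it was -0.01. Mir33, the microRNA gene inside Srebf2 on the same strand (chr15:82198122-82198190), is listed at 0 in all 8 libraries. Whether so short a gene can gain fragments in such libraries was not tested, so the 0 is no measure of its expression.

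**Figure D2:**
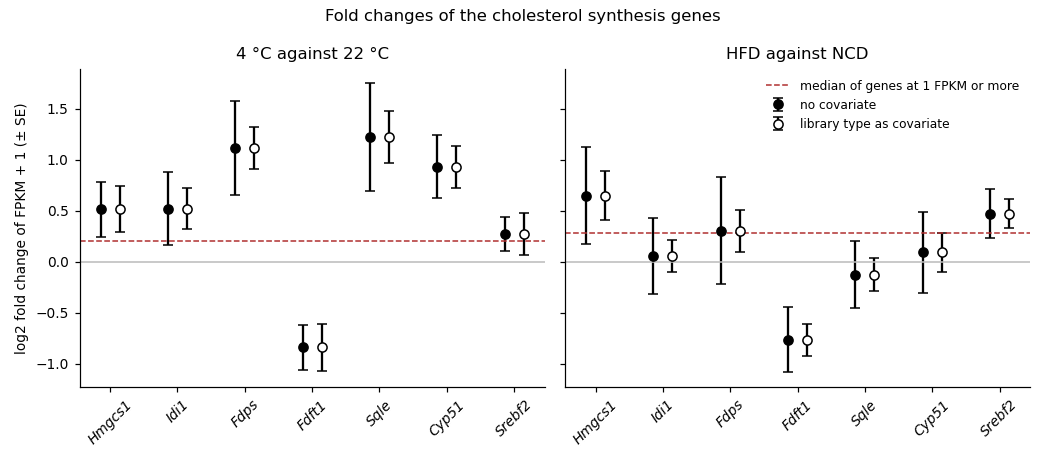
Log2 fold change of FPKM + 1 with its SE (vertical axis) for each gene at 4 °C against 22 °C and on HFD against NCD, fitted without a covariate (filled) and with library type as a covariate (open), with the median of all genes at 1 FPKM or more dashed. Fdft1 lies below 0 in both comparisons (-0.84 and -0.77), and the covariate narrows the SE of Fdps in the cold from 0.46 to 0.20 without moving the value.

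On HFD, the mean of 5 genes was higher and that of 2 was lower on the log2 scale, with a median log2 fold change of 0.09 beside 0.29 over all genes at 1 FPKM or more. Both HFD libraries were above both NCD libraries in Hmgcs1 and Srebf2, as in 39.9% of all genes tested, and below in Fdft1, as in 5.8%. By limma 0 of the 7 passed (0.0684% of 17543 genes did), and 1, Fdft1, had an unadjusted p under 0.05, where 14.4% of all genes did. The label of NCD replicate 6 starts with another prefix than those of the other 3 diet libraries, and what the prefix stands for is not stated. Values without NCD replicate 6, which leave 1 NCD library, are given beside the genes that were apart.

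Hmgcs1 was at 50.7 and 68.4 FPKM on NCD and at 83.1 and 103.8 FPKM on HFD. All 4 of these libraries were above the 4 of the younger mice, so that the groups were ordered 22 °C, 4 °C, NCD and HFD with no overlap between neighbours. Age and food differ between the cold and the diet sets and cannot be told apart in that order. Between NCD and HFD the log2 fold change was 0.65 (SE 0.48, limma adjusted p = 0.585), and without NCD replicate 6 it was 0.44. The ratio of Hmgcs1 to Idi1, a later step of the same arm, was 4.06 to 7.18 in the younger mice, 8.47 and 21.3 on NCD and 22.1 and 18.2 on HFD.

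Fdft1 stood at 10.03 and 10.86 FPKM on NCD and at 5.97 and 5.48 FPKM on HFD. Libraries of the same group lay close together and the groups were well apart, with a mean ratio of 1.82 for NCD over HFD. The log2 fold change was -0.77 (SE 0.32, 95% interval -1.51 to -0.02, limma adjusted p = 0.335). With library type as a covariate the SE was 0.16 and the limma adjusted p 0.0240, still short of the required fold change. Without NCD replicate 6 the log2 fold change was -0.82. Ctsb, its neighbour, overlapped between the diet groups (204 and 104 FPKM on NCD, 154 and 213 FPKM on HFD).

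Srebf2 was at 1.40 and 1.35 FPKM on NCD and at 2.05 and 2.54 FPKM on HFD. The NCD libraries were the lowest of all 8, and the log2 fold change on HFD was 0.47 (SE 0.24, limma adjusted p = 0.433) and 0.49 without NCD replicate 6.

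Idi1, Fdps, Sqle and Cyp51 overlapped between the diets. Fdps, for example, was at 23.6 and 8.80 FPKM on NCD and at 14.04 and 23.44 FPKM on HFD, where each satellite-low library exceeded each satellite-high one. The log2 fold changes were 0.06 for Idi1 (95% interval -0.81 to 0.93), 0.30 for Fdps (-0.93 to 1.54), -0.13 for Sqle (-0.89 to 0.64) and 0.09 for Cyp51 (-0.83 to 1.02). These intervals leave room for differences in either direction, and the signs of all 4 depended on the scaling or the libraries used.

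The cold and the diet effect share no library, so their difference was tested in 1 fit of all 8. None of the 7 passed by limma, where 1.04% of 18902 genes did, and 0 had an unadjusted p under 0.05, where 18.4% of all genes did. For Sqle the cold effect exceeded the diet effect by 1.35 on the log2 scale (SE 0.70, 95% interval -0.30 to 2.99, limma adjusted p = 0.367) and for Cyp51 by 0.84 (SE 0.54, adjusted p = 0.477). With 1 library left out the Cyp51 difference ran from 0.37 (without NCD replicate 6) to 1.31 (without NCD replicate 8). For Fdft1 the effects differed by -0.07 (95% interval -0.82 to 0.67) and for Hmgcs1 by -0.13 (-1.19 to 0.93). The largest of the 7 differences was that of Sqle, which was 0.61 without 4 °C replicate 2 and 2.08 without 4 °C replicate 11. With the muscle marker score as a covariate over the 8 libraries, the cold log2 fold change was 2.41 for Fdps, 0.79 for Hmgcs1 and -1.17 for Fdft1, while on HFD that of Fdps became -1.02 and that of Fdft1 -0.43. In that fit 0 of 18902 genes (0%) passed by limma in either comparison, members included, with 3213 in the cold and 2110 on HFD at an unadjusted p under 0.05.

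The opposite course of Fdft1 was also read within each library, where scaling has no effect. The choice of this ratio followed from the values above, so its separation of the groups is a description and no separate test. The log2 FPKM of Fdft1 minus the mean log2 FPKM of the 6 other genes was 2.43 and 1.26 at 22 °C and -0.21 and 0.27 at 4 °C, and 0.33 and 1.10 on NCD and -0.15 and -0.75 on HFD. The groups did not overlap in either comparison, and with 2 libraries against 2 a two-sided exact permutation test cannot go below p = 0.333. In every group the satellite-low library had the lower value, so this difference also followed library type. Fdft1 and Fdps, neighbours in the pathway, stood at a ratio of 2.71 and 0.885 at 22 °C, 0.297 and 0.441 at 4 °C, 0.426 and 1.23 on NCD and 0.425 and 0.234 on HFD.

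**Figure D3:**
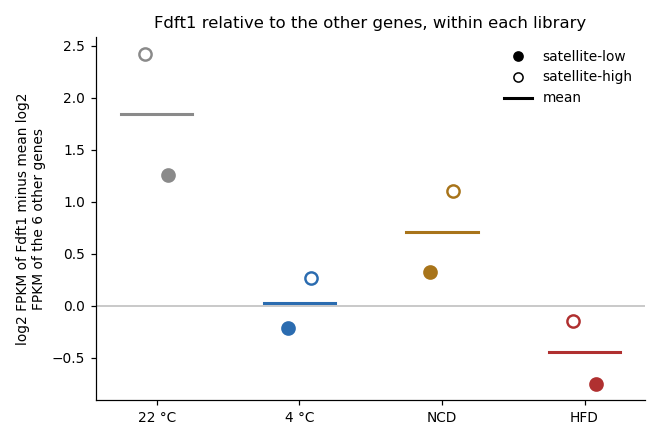
Log2 FPKM of Fdft1 minus the mean log2 FPKM of the 6 other genes (vertical axis) in each library by group (horizontal axis), with the group mean as a line, satellite-low libraries filled and satellite-high libraries open. Both 4 °C points (-0.21 and 0.27) lie under both 22 °C points (1.26 and 2.43), and both HFD points lie under both NCD points.

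Within the groups, 5 of the 7 genes (Idi1, Fdps, Sqle, Cyp51 and Srebf2) were lower in the satellite-high library of all 4 groups, as were 26.2% of 18902 genes. The satellite-low library exceeded its partner by a factor of 1.52 to 1.86 for Idi1, 1.67 to 2.68 for Fdps, 1.38 to 3.28 for Sqle and 1.36 to 2.21 for Cyp51. For Srebf2 the factor was only 1.04 to 1.24. Hmgcs1 (0.742 to 1.56) and Fdft1 (0.762 to 1.21) had no common direction. In a fit with group and library type, the type term was -0.99 for Fdps (SE 0.15, limma adjusted p = 0.111), -0.80 for Sqle, -0.67 for Idi1 and -0.62 for Cyp51 (each adjusted p = 0.139), beside a median of -0.25 over all genes at 1 FPKM or more. No member passed by limma (0 of 7), where 0.0476% of all genes did, and 4 had an unadjusted p under 0.05, where 26% of all genes did. The cold log2 fold changes of the same 4 genes were 0.52 to 1.22.

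**Figure D4:**
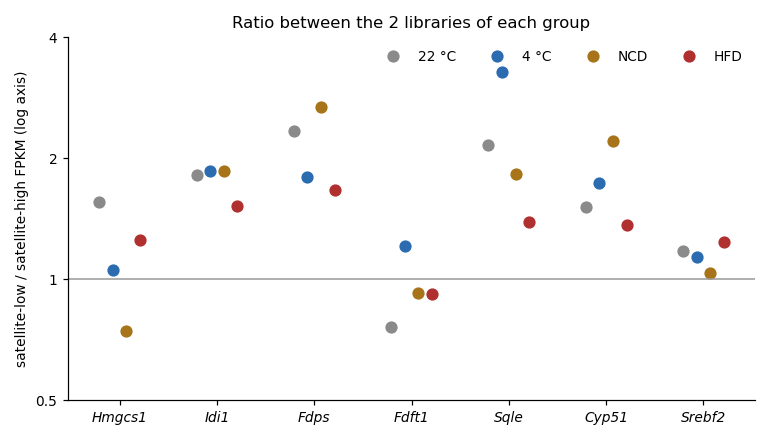
FPKM in the satellite-low library divided by that in the satellite-high library of the same group (vertical axis, log scale) for each gene, with 1 point per group. All 4 points lie above 1 for Idi1, Fdps, Sqle, Cyp51 and Srebf2, and on both sides of 1 for Hmgcs1 and Fdft1.

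The genes whose pattern over the 8 libraries was most like the mean of the standardized values of the 7 were Ruvbl2 (Pearson r 0.989), Rab12 (0.983), Timm10b (0.981), Psmd3 (0.977), Ddx47 (0.974), Ric8b (0.974), Ebag9 (0.973), Plpp6 (0.972), Malsu1 (0.972) and Cyb5b (0.972), among 10883 genes that averaged 1 FPKM or more. They include an AAA+ ATPase (Ruvbl2), a small GTPase (Rab12), a mitochondrial import factor (Timm10b), a proteasome subunit (Psmd3) and a phosphatase of isoprenoid diphosphates (Plpp6). Psmd3, for example, was at 12.4 and 17.8 FPKM at 22 °C, 49.6 and 20.5 at 4 °C, 23.1 and 11.1 on NCD and 14.4 and 29.7 on HFD. These 10 genes were likewise higher in the satellite-low library of each group. The same r was 0.93 to 0.98 for Idi1, Fdps, Cyp51 and Sqle, 0.67 for Srebf2, 0.10 for Hmgcs1 and -0.35 for Fdft1, so the mean pattern is that of the first 4. The 8 libraries share group and library type, and r is given as a description.

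The other genes of the pathway came from lists written for this work. The list counts stand beside 24.5% of all genes in the cold and 14.4% on HFD at an unadjusted p under 0.05. Genes that passed with library type as a covariate stand beside 4.92% of all genes in the cold and 4.25% on HFD. Those that passed with 1 library left out stand beside 3.05% (without 22 °C replicate 4), 4.55% (without 22 °C replicate 7) and 2.57% (without 4 °C replicate 11) in the cold, and 4.22% (without NCD replicate 6), 1.35% (without NCD replicate 8) and 2.08% (without HFD replicate 2) on HFD. Of the 5 tested genes of the mevalonate arm, 4 had a positive cold log2 fold change and 0 passed by limma (1 at an unadjusted p under 0.05), with a list median of 0.27. Pmvk, the phosphomevalonate kinase, was at 12.4 and 22.7 FPKM at 22 °C and 34.2 and 29.6 FPKM at 4 °C (log2 fold change 0.88, limma adjusted p = 0.179), with 0.47 without 22 °C replicate 4 and 1.29 without 22 °C replicate 7. Acat2, which makes acetoacetyl-CoA at the head of the arm, was at 33.2 and 43.8 against 26.1 and 27.2 FPKM (-0.50, adjusted p = 0.248). Its log2 fold change was -0.70 without 22 °C replicate 4 and -0.31 without 22 °C replicate 7. On HFD the list median was 0.31, with 0 passed and 0 at an unadjusted p under 0.05. Mvk, the mevalonate kinase, was at 4.65 and 2.41 FPKM on NCD and at 4.35 and 6.97 FPKM on HFD, and these groups overlapped (log2 fold change 0.57, limma adjusted p = 0.541).

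In the sterol arm, 6 of 8 tested genes were positive in the cold and both cold libraries were above in 5 (37.9% of all genes), with a median of 0.56 and 0 passed by limma (3 at an unadjusted p under 0.05). Hsd17b7, a ketoreductase of sterol demethylation, was at 1.27 and 1.38 FPKM at 22 °C and at 6.53 and 2.94 FPKM at 4 °C (log2 fold change 1.23, limma adjusted p = 0.107). Msmo1, the sterol methyl oxidase, was at 2.99 and 3.90 against 13.7 and 5.24 FPKM (1.11, adjusted p = 0.191). As with Sqle, 4 °C replicate 2 was the highest of the 4 in both, and without it the log2 fold changes were 0.76 and 0.497. Without 4 °C replicate 11 they were 1.695 and 1.729. For Hsd17b7 the value was 1.194 without 22 °C replicate 4 and 1.261 without 22 °C replicate 7. On HFD the median was 0.14 with 0 passed (2 at an unadjusted p under 0.05). Lbr, a sterol reductase of the nuclear membrane, stood at 2.36 and 2.01 FPKM on NCD and at 3.59 and 4.61 FPKM on HFD (0.67, adjusted p = 0.344).

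Among the genes that process SREBP, 0 of 8 tested passed by limma in the cold (3 at an unadjusted p under 0.05) and 0 on HFD (0 at that level), with medians of 0.21 and 0.25. Insig2, which retains SREBP in the endoplasmic reticulum, was at 2.51 and 3.87 FPKM at 22 °C and 13.7 and 5.44 at 4 °C. Its log2 fold change was 1.23 (limma adjusted p = 0.165), and it passed with library type as a covariate (adjusted p = 0.0449). With 1 library left out, the log2 fold change ran from 0.64 (without 4 °C replicate 2) to 1.82 (without 4 °C replicate 11). Srebf1, the lipogenic paralogue of Srebf2, was at 42.7 and 65.1 against 24.4 and 28.5 FPKM (-0.97, adjusted p = 0.117), and it exceeded Srebf2 in every library, by 24.9-fold and 32.3-fold at 22 °C and by 9.32-fold and 12.4-fold at 4 °C. Both cold ratios were thus below both warm ones. On HFD Insig1, itself a sterol-controlled retention factor, overlapped at 143 and 57.6 against 51.8 and 69.5 FPKM (-0.59, adjusted p = 0.691). Mbtps1, the protease that first cuts SREBP, was at 8.57 and 7.92 against 11.5 and 10.9 FPKM (0.40, adjusted p = 0.626).

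For uptake and intracellular transport, both cold libraries were above in 8 of 11 tested genes and below in 2 (37.9% and 20.6% of all genes), with a median of 0.34 and 0 passed by limma. An unadjusted p under 0.05 was reached by 5 of the 11, beside 24.5% of all genes. Vldlr, the very-low-density lipoprotein receptor, stood at 26.4 and 23.8 FPKM at 22 °C and at 88.7 and 54.8 FPKM at 4 °C (log2 fold change 1.44, SE 0.29, limma adjusted p = 0.0668), and it passed with library type as a covariate (adjusted p = 0.0366) and without 4 °C replicate 11 (adjusted p = 0.0475). On HFD 11 of 12 were positive, both HFD libraries were above in 7 (39.9% of all genes), the median was 0.32 beside 0.29 over all genes at 1 FPKM or more, and 0 passed (2 at an unadjusted p under 0.05). Lrp1, a receptor of remnant lipoproteins that macrophages also express, was at 9.43 and 13.4 FPKM on NCD and at 20.8 and 27.4 FPKM on HFD (1.02, adjusted p = 0.301), and it passed with library type as a covariate (adjusted p = 0.0331).

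**Figure D5:**
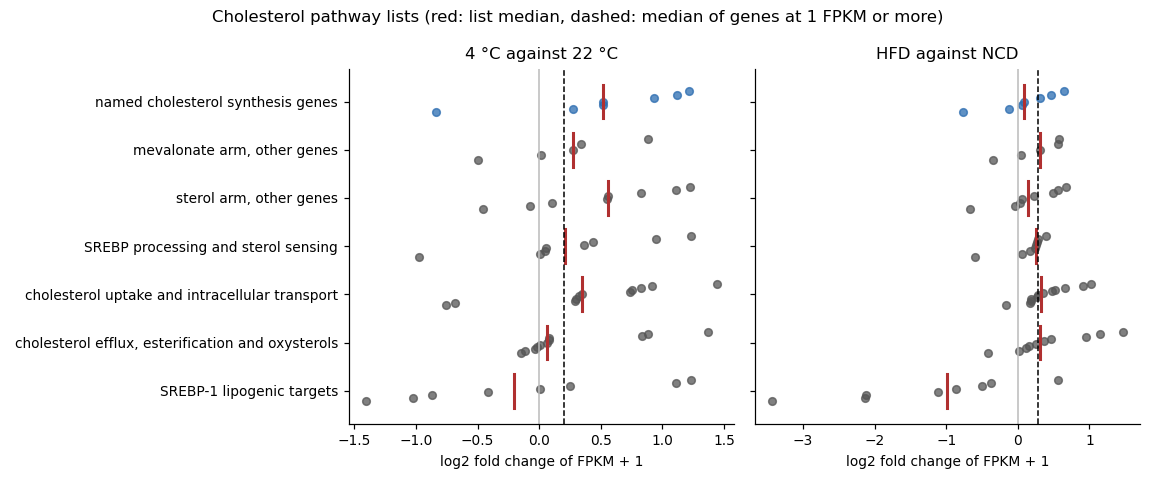
Log2 fold change of FPKM + 1 (horizontal axis) of each tested gene in the cholesterol lists (rows) at 4 °C against 22 °C and on HFD against NCD, with the list median in red and the median of all genes at 1 FPKM or more dashed. In the cold the named synthesis genes (0.52) and the other sterol arm genes (0.56) have the highest medians, and on HFD the SREBP-1 lipogenic list has the lowest (-0.98).

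Of the genes of efflux, esterification and oxysterols, 0 of 11 passed by limma in the cold (3 at an unadjusted p under 0.05) and 0 of 10 on HFD (3 at that level). Abcg1, a cholesterol exporter, was at 2.64 and 1.59 FPKM at 22 °C and at 6.64 and 7.23 FPKM at 4 °C (log2 fold change 1.37, SE 0.23, limma adjusted p = 0.0535), and it passed with library type as a covariate (adjusted p = 0.0296) and without 22 °C replicate 4 (adjusted p = 0.0174). Nceh1, a cholesteryl ester hydrolase, was at 0.549 and 0.459 against 2.37 and 1.28 FPKM (0.88, limma adjusted p = 0.0877). Its value ran from 0.60 (without 4 °C replicate 2) to 1.17 (without 4 °C replicate 11). On HFD Soat1, which esterifies cholesterol and is abundant in macrophages, stood at 1.97 and 0.603 against 4.54 and 5.54 FPKM (1.46, adjusted p = 0.169), and Apoe, the apolipoprotein of remnants, at 205 and 156 against 355 and 443 FPKM (1.15, adjusted p = 0.422). With library type as a covariate both passed (adjusted p = 0.00819 and 0.0205), as did 745 of 17543 genes (4.25%) against 12 without it, and all 7 macrophage markers were higher in the same libraries. With 1 library left out, the Soat1 log2 fold change ran from 1.02 (without NCD replicate 8) to 1.91 (without NCD replicate 6).

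Among the lipogenic targets of SREBP-1, 7 of 8 were negative on HFD, both HFD libraries were below in 5 (5.8% of all genes), and the median was -0.98 with 0 passed by limma (3 at an unadjusted p under 0.05). Fasn, the fatty acid synthase, was at 377 and 634 FPKM on NCD and at 56.0 and 35.3 FPKM on HFD (log2 fold change -3.43, SE 0.57, limma adjusted p = 0.120), and Elovl6, a fatty acid elongase, at 74.5 and 60.5 against 14.4 and 14.7 FPKM (-2.13, adjusted p = 0.141). With library type as a covariate both passed (limma adjusted p = 0.00126 and 0.00345). With 1 library left out, the Fasn value ran from -3.80 (without NCD replicate 6) to -3.05 (without NCD replicate 8). That of Elovl6 ran from -2.28 (without NCD replicate 8) to -1.985 (without NCD replicate 6). In the cold 4 were positive and 4 negative with 0 passed (1 at an unadjusted p under 0.05). Pnpla3, a lipid droplet protein, was at 14.7 and 27.0 against 7.98 and 5.99 FPKM (-1.40, limma adjusted p = 0.0851). It passed with library type as a covariate (adjusted p = 0.0282). With 1 library left out, its log2 fold change ran from -1.82 (without 22 °C replicate 4) to -0.99 (without 22 °C replicate 7). Elovl6 was at 39.2 and 107 against 127 and 185 FPKM (1.23, limma adjusted p = 0.220). The Elovl6 value was 0.52 without 22 °C replicate 4 and 1.94 without 22 °C replicate 7.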

How the data were processed

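RNA-Seq values of 8 BAT libraries were analysed. The authors depleted rRNA, made directional paired-end libraries, mapped reads to GRCm38 with Tophat2 and ran Cufflinks on the Ensembl annotation. The values the authors deposited are FPKM, 1 per gene and library, and no counts were used here. Groups and replicate numbers came from the labels. Log2(FPKM + 1) values were tested with limma 3.58.1 in R 4.3.3 (lmFit, eBayes with intensity trend), using the 4 libraries of a comparison, or all 8 for the difference of effects and the library type term. Genes needed 0.1 FPKM in at least 2 libraries, and X, Y and mitochondrial genes were left out. P-values are two-sided and Benjamini-Hochberg adjusted over all genes tested. A gene passed at an adjusted p under 0.05 if its log2 fold change also reached 1 either way. The added 1 understates fold changes of low genes. SD and SE are over libraries (n = 2 per group).

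Satellite-high libraries had Gm10800 above 100 FPKM. Low FPKM values fell on whole fragments (97.6% to 98.4% within 0.1 fragment of 1153 to 2899 values per library), which gave the fragment estimates. They cover counting error only, and no library total was read from them. The fit was tested on simulated data. Gene names and overlaps came from GENCODE M21 and promoter windows from RefSeq. From each other list the text names genes that passed and otherwise the 2 with the largest fold change at a mean of at least 1 FPKM, plus the 10 genes most like the members. Some genes that this rule names are not reported here. The members, lists, tests and alternatives were chosen with earlier results of these data known. The scaling, filter, pseudocount, covariate, call rule and library alternatives are given at the end. Summaries used Python 3.11 with pandas, NumPy and SciPy.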

Additional observations from a re-analysis of the deposited data

How the results depend on the processing

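With 2 libraries a group, the number of members past the threshold in the cold was 0 as reported and 0 to 2 when 1 library was left out, with 2 (Fdps and Sqle) only without 22 °C replicate 7, where 767 of 16860 genes passed. It was 1 (Fdft1) after median centring, 2 (Fdps and Sqle) with library type as a covariate, where 859 of 17477 genes passed, and, in fits added after seeing the data, 1 (Fdft1) for median centring with library type and 2 (Fdps and Sqle) for all 8 libraries with library type. On HFD it was 0 in every other alternative run and 1 (Fdft1) in the added fit of median centring with library type, and for the difference between the effects it was 0 throughout. The cause of these changes was not tested. The lone library left in a group is assumed to vary like the others.

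The directions of Hmgcs1 and Fdft1 in both comparisons held under every alternative run. Srebf2 in the cold was -0.0080 after rescaling to the autosomal sum. On HFD the signs of 4 members turned. After median centring, with or without library type, the log2 fold change was -0.30 for Idi1, -0.050 for Fdps and -0.26 for Cyp51. After quantile normalization it was -0.28 for Idi1 and -0.24 for Cyp51, after the autosomal rescaling -0.066 and -0.026, and with the muscle score -0.70 for Idi1, -1.02 for Fdps, -0.59 for Cyp51 and -0.047 for Mvk. Without NCD replicate 6 it was 0.19 for Sqle and 0.059 for Insig1. Leaving out 1 library gave -0.31 to 0.42 for Idi1, -0.36 to 0.97 for Fdps, -0.45 to 0.19 for Sqle, -0.38 to 0.56 for Cyp51 and -1.24 to 0.059 for Insig1, with the lowest value without NCD replicate 8 and the highest without NCD replicate 6. With the muscle score the cold value of Acat2 was 0.074. The difference between the effects was 0.42 for Hmgcs1 and 0.16 for Srebf2 with the muscle score and 0.025 for Fdft1 after median centring, with or without library type, and ranged from -0.44 to 0.17 for Hmgcs1 and -0.26 to 0.11 for Fdft1 when 1 library was left out. Within library types, with no test, it was 0.51 (satellite-high) and -0.77 (satellite-low) for Hmgcs1 and -0.38 and 0.23 for Fdft1, and the HFD log2 fold change was 0.17 and -0.060 for Idi1, 0.62 and -0.0083 for Fdps, 0.024 and -0.28 for Sqle and 0.37 and -0.19 for Cyp51.

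Over all genes, the number past the threshold was 252 in the cold (0 to 920 over the alternatives), 12 on HFD (0 to 745, the highest with library type as a covariate), 196 for the difference (0 to 987) and 9 for library type (1 to 186). It was 0 with the muscle score in all of the first 3. In the cold 213 were higher and 39 lower, against 495 and 260 after median centring, 313 and 178 after quantile normalization and 347 and 167 after rescaling. On HFD 9 were higher and 3 lower, against 23 and 22 after median centring. The median log2 fold change of genes at 1 FPKM or more was 0.20 (cold) and 0.29 (HFD) as reported, and -0.052 and -0.070 after that centring. No paired analysis was possible because 22 °C and 4 °C share no replicate number and NCD and HFD share only number 6.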
